A study of Mus musculus with 4 samples.

Results

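The mitochondrial respiratory chain subunits encoded in the nucleus were taken as the genes whose symbol is Nduf followed by a, b, c, s or v and a number, Sdha to Sdhd, or begins with Uqcr, Cox4 to Cox8 or Atp5. The symbols came from the transcript accessions of the array's probes, matched to a RefSeq table of the mouse assembly GRCm38.p6. That table held 98 such symbols, of which 14 were pseudogenes and 84 were protein coding. Probes were matched for 82 of the 22911 genes with a probe, and 77 of these passed the scanner's quality flags on all 4 arrays, among 13766 genes that did so. Cox5b and Ndufb1 had no matched probe and were not analysed here, and no probe was matched to the subunits encoded by mitochondrial DNA. Of the 77 measured members, 34 belonged to complex I, 4 to complex II, 8 to complex III, 14 to complex IV and 17 to ATP synthase, and 61 rested on 1 probe.

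The arrays compared tumor-infiltrating cells of wild type (Wt) and Sipa1-/- mice, the latter lacking Sipa1, a GTPase-activating protein for Rap1. Hematopoietic progenitor cells (HPCs) carrying Bcr-Abl and GFP were placed in Matrigel and injected under the skin of C57BL/6Ncr mice, 15000 cells per mouse, and the tumors were collected on day 12. The mice were 8 weeks old, with 5 per genotype, and both genotypes received the same kind of cells. Mesenchymal stroma cells (MSCs) were sorted as GFP- CD45- Ter119- CD31- cells and CD8 T cells as GFP- TCRb+ CD8+ cells. Each combination of cell type and genotype had 1 array, whether animals were pooled for it is not given in the sources used here, and the MSC gate held no positive marker. No difference below therefore has a replicate check, and no test, p-value or standard error was computed.

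The respiratory chain passes electrons from NADH through complex I and from succinate through complex II to ubiquinone, then through complex III and cytochrome c to complex IV, which reduces oxygen. The protons pumped on the way drive ATP synthase. Several complex IV subunits exist as a ubiquitous form and a second form that is found mainly in certain tissues, such as heart and skeletal muscle or testis, and these second forms are called tissue isoforms here.

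Levels are given as the log2 spot signal minus the 75th percentile of that array, in the order Wt MSCs, Sipa1-/- MSCs, Wt CD8 T cells and Sipa1-/- CD8 T cells. A level is compared only with the level of the same probes on another array, since probes differ in brightness. Differences are log2, so that 1 is 2-fold. Probes printed on 10 spots of an array had a median SD of 0.039 to 0.044, and a difference of 0.117 is 2 SDs of the difference between a pair of such spots, which covers spot noise only. Both Sipa1 probes were lower on the Sipa1-/- arrays of both cell types, with levels of 5.03, 3.78, 5.40 and 3.73 for the brighter one. CD8 T cell markers had a median level of 5.24 and 5.29 on the CD8 T cell arrays against -1.87 and -1.63 on the MSC arrays, and fibroblast markers 4.87 and 6.55 on the MSC arrays against -0.36 and 1.28. The MSC arrays also carried erythroid markers at median levels of 4.62 and 4.68 and B lineage markers at 4.82 and 0.85, although the gate excluded CD45+ and Ter119+ cells. Granulocyte markers were present in both cell types, at median levels of 4.38 and 4.56 on the MSC arrays and 3.42 and 2.05 on the CD8 T cell arrays.

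In MSCs, nearly all subunits were slightly lower on the Sipa1-/- array, while 3 of the 4 tissue isoforms of complex IV measured on all arrays were higher. The median difference of the 77 members was -0.40, a change of -24.2%, against -0.03 for all 13766 genes. Of the members 73 were lower, whereas 51.4% of all genes were lower. Genes between the members' 10th and 90th percentile of mean level were lower in 61.3% of cases, with a median of -0.22. The exceptions were Sdhc at 0.00 and Cox4i2, Cox6a2 and Cox7a1, which were higher. Only 2 members were at least 2-fold lower, Ndufs8 and Cox5a, against 11.9% of all genes, and 2 were at least 2-fold higher, Cox6a2 and Cox7a1, against 15.9%. Beyond the limit set by spot noise, 68 members were lower and 3 higher, where 45.8% of all genes and 55.4% of the genes in the members' range of mean level were lower by as much, and 43.4% and 33.1% higher. Under the scaling of the authors' series matrix, which shifts every MSC genotype difference by 0.21, 63 of 77 were lower. Such a shift cannot change the count below the median gene, which was 73 of 77. Under quantile normalization 69 of 77 were lower and 65 lay below the median gene.

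Complex I, the NADH dehydrogenase, had all 34 measured subunits lower in Sipa1-/- MSCs, with a median of -0.38, and 31 were lower by more than the spot noise limit, which 45.8% of all genes also were. Ndufs8, an iron-sulfur subunit that passes electrons toward ubiquinone and lies at chr19:3908863-3912774, had levels of 5.05, 3.87, 4.78 and 4.63. The Sipa1-/- MSC array was the low one of the 4, and the other three lay closer together. Its MSC difference was -1.17, or -0.97 under the series matrix scaling, and its CD8 T cell difference was -0.15. Ndufa4, which is filed here by its symbol although it is now regarded as a complex IV subunit, had levels of 3.86, 2.88, 3.98 and 3.72, again with the lowest value on the Sipa1-/- MSC array and an MSC difference of -0.99. At the other end, Ndufa13 and Ndufa3, accessory subunits of the membrane part, differed by -0.06 and -0.09, and Ndufa5 differed by -0.09. These subunits lay within the spot noise limit and would be above 0 under the series matrix scaling. So would Ndufa7 at -0.13, Ndufa1 at -0.17, Ndufv1 at -0.20 and Ndufc1 at -0.20.

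Complex II, the succinate dehydrogenase shared with the TCA cycle, had 3 of 4 subunits lower in Sipa1-/- MSCs. There 51.4% of all genes and 61.3% of the genes in the members' range of mean level were lower. The flavoprotein Sdha had levels of 2.31, 1.81, 2.53 and 2.39, a difference of -0.50. The iron-sulfur subunit Sdhb had 4.30, 3.71, 4.19 and 4.06, a difference of -0.60. Of the membrane anchors, Sdhd differed by -0.29, and Sdhc was level between both MSC arrays at 2.54.

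Complex III, the cytochrome bc1 complex, had all 8 subunits lower in Sipa1-/- MSCs, within a range of -0.63 to -0.33. Lower were 51.4% of all genes and 61.3% of those in the members' range of mean level. The core proteins Uqcrc1 and Uqcrc2 were lowest, at -0.63 and -0.58, and the hinge protein Uqcrh and the small subunit Uqcr11 were nearest to 0, both at -0.33. Uqcrc1 levels were 4.63, 4.004, 4.47 and 4.40, so that only the Sipa1-/- MSC array stood lower. Its cytochrome c1, encoded by Cyc1 and outside the symbol rule, had levels of 4.29, 3.53, 4.08 and 3.99 and an MSC difference of -0.76, and the electron carrier cytochrome c, Cycs, differed by -0.61.

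ATP synthase had all 17 subunits lower in Sipa1-/- MSCs, with the lowest median of the complexes at -0.50 and a range of -0.68 to -0.22. The share lower was 51.4% of all genes and 61.3% of those in the members' range of mean level. The catalytic beta subunit Atp5b had levels of 4.72, 4.04, 4.55 and 4.42, a difference of -0.68. Atp5mpl, a small subunit of the membrane part, differed by -0.62. The delta and g subunits Atp5d and Atp5l were nearest to 0, at -0.22 and -0.24. The 3 genes Atp5g1, Atp5g2 and Atp5g3, which encode the same mature c-ring protein, differed alike, by -0.43, -0.60 and -0.59. Of Atp5a1, the alpha subunit, the 2 probes differed in size but not in direction, at -0.42 and -0.80, the widest disagreement among the 16 members with more than 1 probe. In 15 of these 16 all probes were lower in Sipa1-/- MSCs, and the exception was Cox7c, with probes at -0.24 and 0.03.

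Complex IV, cytochrome c oxidase, was split. Cox5a, a ubiquitous subunit at chr9:57517328-57532427, had levels of 5.99, 4.96, 6.00 and 5.91, with the Sipa1-/- MSC array alone low, and a difference of -1.02. It was -0.95 when arrays were shifted by their median and -0.82 under the series matrix scaling, so that its place past 2-fold rests on the scaling. The other ubiquitous subunits lay between -0.55 for Cox7a2 and -0.11 for Cox7c, with Cox4i1 at -0.24, Cox6a1 at -0.36, Cox6b1 at -0.42, Cox7b at -0.40 and Cox8a at -0.32. The assembly-related Cox7a2l differed by -0.34.

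**Figure D1:**
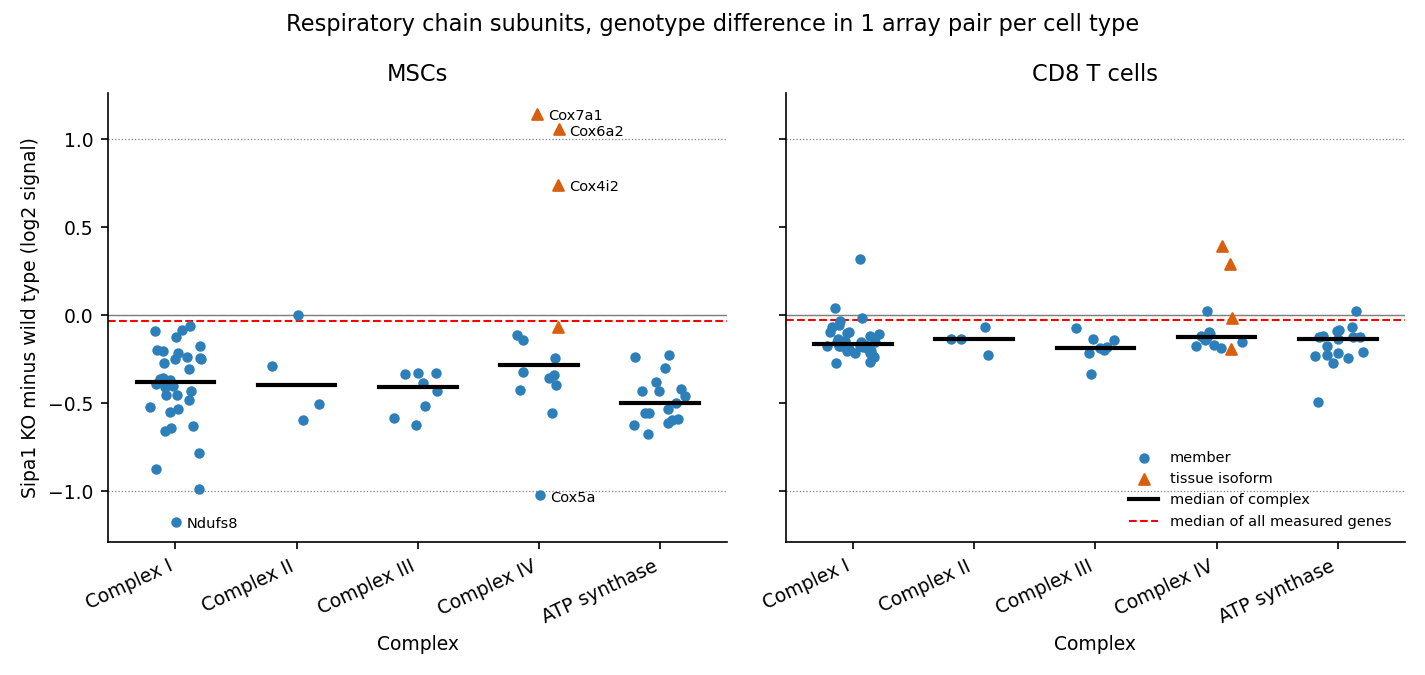
Genotype difference of each of the 77 measured members by complex, as log2 signal of the Sipa1-/- array minus the Wt array, for MSCs (left) and CD8 T cells (right), with 1 array pair per cell type. Black bars are medians of a complex, triangles are tissue isoforms, the red dashed line is the median of all 13766 measured genes and dotted lines mark 2-fold. In MSCs 73 of 77 points lie below 0 and Cox7a1, Cox6a2 and Cox4i2 lie above it, and in CD8 T cells 71 of 77 lie below 0 and nearer to it. Under the series matrix scaling these counts are 63 and 48.

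Among the tissue isoforms of complex IV, Cox7a1, Cox6a2, Cox8b and Cox4i2 went the other way from their ubiquitous partners in MSCs, and Cox6b2 did not. Cox7a1, the heart and muscle form of subunit VIIa at chr7:30184171-30186030, had levels of 1.30, 2.44, -1.61 and -1.21. It was highest in Sipa1-/- MSCs, and both MSC arrays lay far above both CD8 T cell arrays. Its MSC genotype difference was 1.14, its CD8 T cell one was 0.40, and the difference of Cox7a1 minus that of its partner Cox7a2, which no scaling by a constant can change, was 1.70 for MSCs and 0.57 for CD8 T cells.

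Cox6a2, the heart and muscle form of subunit VIa at chr7:128205435-128206366, had levels of 1.41, 2.46, 0.87 and 1.17. The Sipa1-/- MSC array was again the high one, while the other three were nearer to each other. The MSC difference was 1.06 and the CD8 T cell difference 0.29, which lay 1.41 and 0.41 above those of its partner Cox6a1.

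Cox8b, the muscle form of subunit VIII, was well above background on both MSC arrays only, with levels of 1.12 and 2.30, a difference of 1.18. Its partner Cox8a differed by -0.32, so that the pair diverged by 1.51. On the CD8 T cell arrays Cox8b was not well above background, and the MSC signal was at least 102-fold higher in Wt and at least 206-fold higher in Sipa1-/- cells, each taken against the higher of the probe's own dim signal and the dimmest signal well above background on that array. Cox4i2, a form of subunit IV known from lung and from oxygen-dependent expression, had levels of -0.86, -0.12, -0.79 and -0.80. The Sipa1-/- MSC array alone stood higher, by 0.74 against Wt and by 0.98 beyond Cox4i1, or 0.69 under quantile normalization.

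Cox6b2, the testis form of subunit VIb at chr7:4751792-4753094, did not share this pattern, with levels of 1.22, 1.15, -1.13 and -1.33. It differed between the cell types but hardly between the genotypes, with differences of -0.07 for MSCs and -0.19 for CD8 T cells. Cox7b2, a testis form of subunit VIIb, was well above background on the Sipa1-/- MSC array alone, at least 1.91-fold higher than on the Wt MSC array and at least 1.58-fold higher than on the Sipa1-/- CD8 T cell array. This rests on 1 spot with a dim level of -4.83, where the dimmest signal well above background on that array was -5.79. The Wt MSC value was -5.77. For Cox8c no array had a signal well above background.

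**Figure D2:**
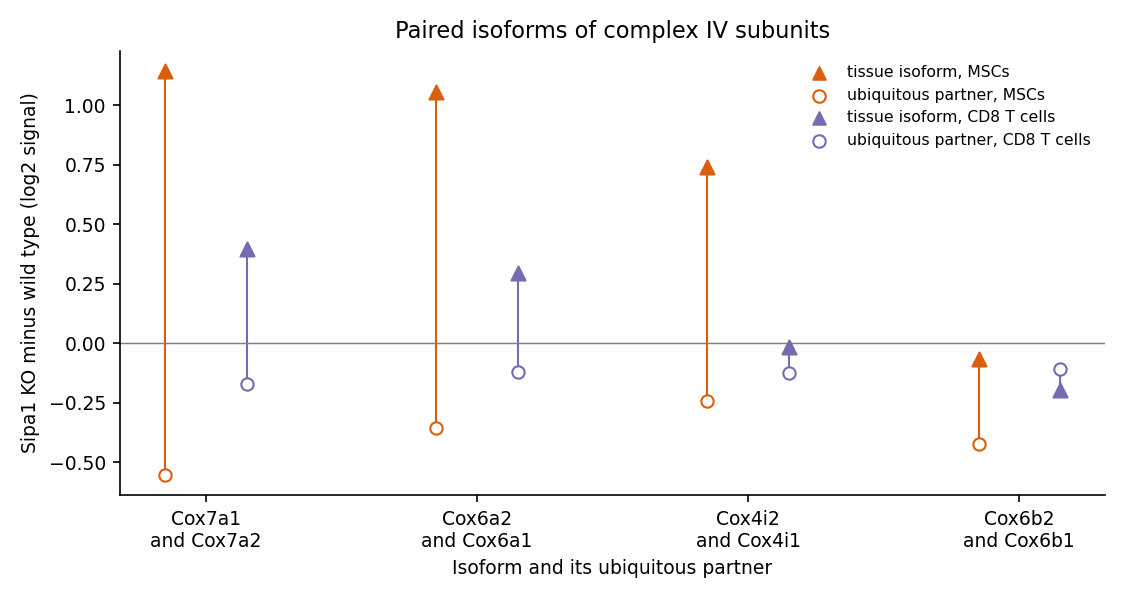
Genotype difference, as log2 signal of the Sipa1-/- array minus the Wt array, of 4 complex IV isoforms measured on all arrays (filled triangles) and of their ubiquitous partners (open circles), in MSCs (orange) and CD8 T cells (purple). Lines join the members of a pair. In MSCs Cox7a1, Cox6a2 and Cox4i2 lie above 0 and their partners below it, and Cox6b2 lies at -0.07.

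Markers of other cells moved on the same arrays. Of all 13766 genes, 6693 were higher and 7073 lower on the Sipa1-/- MSC array. Past 2-fold, 15.9% were higher and 11.9% lower, and the 75th percentile of the difference was 0.62. On the Sipa1-/- CD8 T cell array 6253 genes were higher. Of the 11 measured skeletal muscle markers 10 were higher on the Sipa1-/- MSC array, 1 of them past 2-fold. They lay between -0.50 and 1.15 with a median of 0.62. The log2 of their summed level was 7.38 in Wt and 8.17 in Sipa1-/- MSCs. On the CD8 T cell arrays it was 1.91 and 2.20, and of 16 such markers 12 on the Wt and 11 on the Sipa1-/- one were well above background, with Myh1, Myh2, Mb and Ttn among those that were not. Fibroblast markers were higher in 16 of 16 on the Sipa1-/- MSC array, with a median of 1.57, and in 16 of 16 on the Sipa1-/- CD8 T cell array, with a median of 1.66. B lineage markers were lower in 15 of 15 in Sipa1-/- MSCs, with a median of -4.22 and a log2 summed level of 9.60 against 5.54, and common leukocyte markers in 11 of 12, with a median of -1.69. Macrophage markers were higher in 10 of 11 in Sipa1-/- MSCs, with a median of 1.04 and 6 of them past 2-fold. The part of these markers in the isoform and subunit differences was not tested, and fewer cells of a type and less RNA per cell cannot be told apart in sorted bulk RNA.

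**Figure D3:**
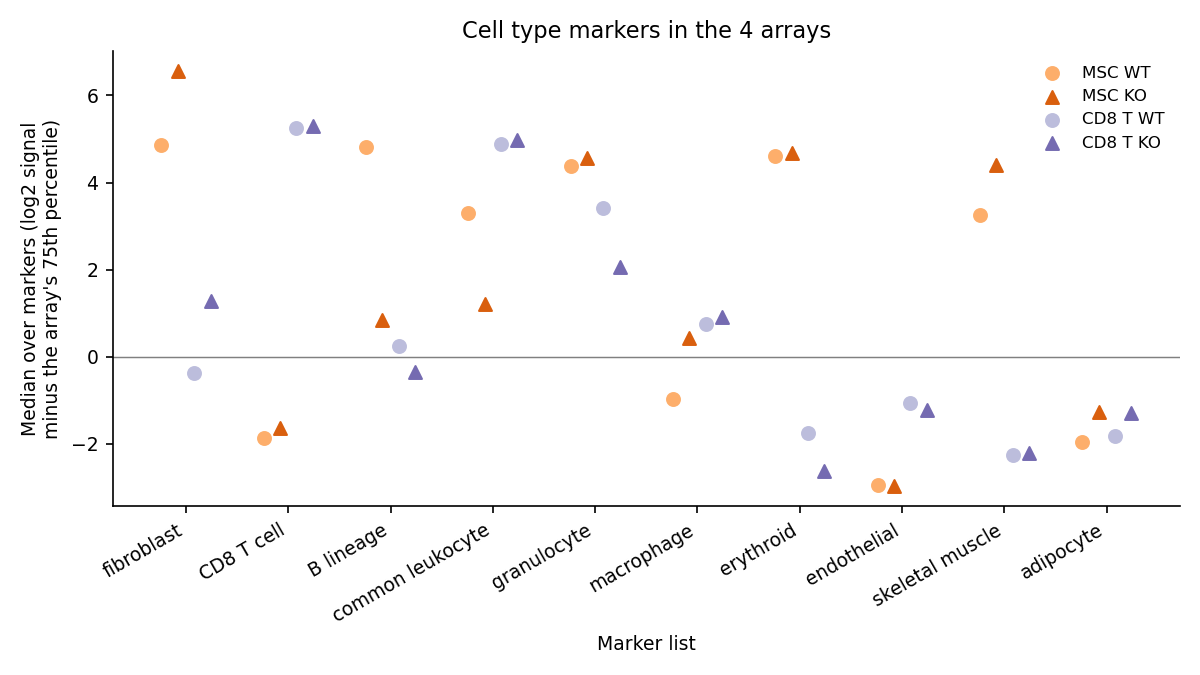
Median level of 10 cell type marker lists on each of the 4 arrays, as log2 signal minus the array's 75th percentile, with circles for Wt, triangles for Sipa1-/-, orange for MSCs and purple for CD8 T cells. B lineage markers stand at 4.82 for Wt MSCs and 0.85 for Sipa1-/- MSCs, and skeletal muscle markers at 3.26 and 4.41.

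Promoter windows from RefSeq (GRCm38.p6) run from 250 bases before to 50 after a transcript's start. The 82 members with a probe had 72 windows, and 56 of these, from 56 genes, began at the start of the gene as annotated. The others, those of Cox5a and Cox7a2 among them, began at another position and were left out, as were such windows of other genes. The 56 were searched on both strands for the core letters of NRF1 (GCATGCGC), ETS factors such as GABPA (CCGGAAG) and YY1 (AAGATGGC), which are known regulators of respiratory chain genes, and for a TATA box (TATAAA), and the ETS and YY1 letters can overlap. At least 1 of the first 3 was present in 28 of the 56 windows, against 11.5% of all 19827 windows at a gene's start, and with no window left out the shares were 43.1% and 13.3%. The shares were 17.9% against 2.27% for NRF1, 28.6% against 7.35% for ETS, 12.5% against 2.69% for YY1 and 10.7% against 16.3% for TATA. The median number of CpG dinucleotides was 19 in members' windows and 5 in all windows. All windows include those of genes not measured here, and the part of CpG content in the motif shares was not tested. Among the 4 tissue isoforms with a window, Cox7a1, Cox8b, Cox6b2 and Cox7b2, the first 3 motifs were in 0 and TATA in 2.

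The windows below belong to Ndufs8, the subunit lowest against Wt in Sipa1-/- MSCs, and to the isoforms Cox7a1 and Cox8b that were higher. The last is that of Cox8a, the partner of Cox8b. These windows are examples and do not stand for types of promoter. They lie at chr19:3912725-3913024 on the minus strand for Ndufs8, chr7:30183921-30184220 on the plus strand for Cox7a1, chr7:140900397-140900696 on the minus strand for Cox8b and chr19:7217567-7217866 on the minus strand for Cox8a. They read from 5′ to 3′ along the gene, and capitals mark the motif matches.
Ndufs8: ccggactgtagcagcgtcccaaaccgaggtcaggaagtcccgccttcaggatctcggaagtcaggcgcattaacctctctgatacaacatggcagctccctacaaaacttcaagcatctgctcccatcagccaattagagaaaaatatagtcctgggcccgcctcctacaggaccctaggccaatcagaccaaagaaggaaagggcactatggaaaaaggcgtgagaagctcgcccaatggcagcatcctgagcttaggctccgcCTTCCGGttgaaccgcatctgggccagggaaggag
Cox7a1: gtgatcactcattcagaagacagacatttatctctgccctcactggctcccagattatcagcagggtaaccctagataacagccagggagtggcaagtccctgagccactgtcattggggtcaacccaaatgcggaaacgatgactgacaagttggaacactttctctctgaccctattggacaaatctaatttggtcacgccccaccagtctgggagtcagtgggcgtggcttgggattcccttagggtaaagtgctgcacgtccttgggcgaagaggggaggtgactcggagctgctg
Cox8b: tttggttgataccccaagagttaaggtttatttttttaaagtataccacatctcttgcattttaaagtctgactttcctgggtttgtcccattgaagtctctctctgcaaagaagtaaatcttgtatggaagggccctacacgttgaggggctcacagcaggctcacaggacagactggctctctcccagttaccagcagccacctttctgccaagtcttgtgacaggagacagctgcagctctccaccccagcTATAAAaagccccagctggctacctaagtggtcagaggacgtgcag
Cox8a: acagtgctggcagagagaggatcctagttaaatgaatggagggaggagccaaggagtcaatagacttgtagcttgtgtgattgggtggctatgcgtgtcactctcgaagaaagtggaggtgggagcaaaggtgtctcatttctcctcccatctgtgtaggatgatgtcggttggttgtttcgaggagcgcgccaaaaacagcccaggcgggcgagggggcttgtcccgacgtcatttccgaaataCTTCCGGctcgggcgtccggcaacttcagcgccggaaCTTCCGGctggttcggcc
Ndufs8 held 1 ETS match and Cox8a held 2, all as the reverse complement. Cox8b held a TATA match and 2 CpG dinucleotides, against 19 in Cox8a. Cox7a1 held none of the 4 letter strings, with 7 CpG dinucleotides. A match is a description of these letters and does not show binding.

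In CD8 T cells the subunits were again lower on the Sipa1-/- array, by less. The median of the 77 members was -0.15, a change of -9.90%, against -0.02 for all genes. Genes in the members' range of mean level had a median of -0.09. Of the members 71 were lower, where 54.6% of all genes and 70.8% of the genes in that range were lower. No member was past 2-fold, against 2.6% of all genes higher and 1.37% lower. Beyond the spot noise limit, 55 members were lower and 3 higher, where 32.4% of all genes and 41.2% of those in the same range of level were lower by as much, and 28.2% and 13.1% higher. Under the series matrix scaling, which shifts these differences by 0.13, 48 of 77 were lower, and 61 under quantile normalization.

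The complex medians in CD8 T cells lay close together, at -0.16 for complex I, -0.14 for complex II, -0.18 for complex III, -0.12 for complex IV and -0.14 for ATP synthase. Atp5md, a small subunit that stabilizes ATP synthase dimers, was the lowest member, with levels of 4.55, 3.999, 4.66 and 4.17 and a CD8 T cell difference of -0.49. It was lower on both Sipa1-/- arrays by a similar amount, -0.55 in MSCs. In CD8 T cells the lowest of complexes I and II were the large subunit Ndufs1 at -0.27 and Sdhd at -0.23. Those of complexes III and IV were the Rieske protein Uqcrfs1 at -0.34 and Cox6b2 at -0.19. Second lowest were Ndufa4 at -0.26, Uqcrc2 at -0.21, Cox6c at -0.18 and, in ATP synthase, the epsilon subunit Atp5e at -0.27. Among the lower members of complex II, complex III and ATP synthase, those nearest to 0 were Sdhc, Uqcrc1 and Atp5j2, each at -0.07. Atp5j2 is the f subunit of ATP synthase, and Uqcrq followed Uqcrc1 at -0.14. The 6 members that were not lower were Cox7a1 at 0.40, the membrane subunit Ndufb8 at 0.32, Cox6a2 at 0.29, Ndufa11 at 0.04, Cox8a at 0.03 and Atp5d at 0.03. Granulocyte markers were lower in 10 of 12 on the same array, with a median of -1.20. Erythroid markers were lower in 7 of 7, with a median of -1.09. Of all genes 54.6% were lower there, and the part of these markers was not tested.

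The genotype difference was lower in MSCs than in CD8 T cells for 66 of the 77 members, 85.7%, with a median gap of -0.25, against 58.2% of the genes in the same range of mean level, with a median gap of -0.14. It was so in all 17 subunits of ATP synthase and all 8 of complex III, and in 8 of 14 of complex IV. Across the members, both differences correlated at Pearson r 0.54 and Spearman rho 0.20 (77 genes). Without the 4 tissue isoforms the values were 0.14 and 0.12 (73 genes), and over all measured genes 0.36 and 0.34. Both comparisons were scaled alike and hybridized on 1 slide, and genes are not replicates.

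Between the cell types, the median subunit differed little in Wt and was lower in MSCs in Sipa1-/-, where other genes of the same range of mean level were lower by as much. These comparisons share their arrays with the genotype comparisons. In Wt, the median of MSCs minus CD8 T cells was -0.03, with 33 members higher and 44 lower, where 53.5% of all genes were lower, and 57.4% of the genes in the members' range of level, with a median of -0.10. Cox7a1 at 2.91 and Cox6b2 at 2.35 were at least 2-fold higher in MSCs, against 17.0% of all genes, and no member was 2-fold lower, against 12.6%. In Sipa1-/- the median was -0.35 against -0.20 for all genes, and 63 members were lower, against 57.8% of all genes. Genes in the members' range of level had a median of -0.36 there, and 66.2% were lower. Cox7a1 at 3.65, Cox6b2 at 2.48 and Cox6a2 at 1.30 were past 2-fold higher, against 20.9% of all genes, and Cox7a2l at -1.04 was the only one past 2-fold lower, against 19.0%. Cox7a2l, at chr17:83501917-83514333, had levels of 6.03, 5.70, 6.88 and 6.74, with both MSC arrays below both CD8 T cell arrays. The direction of these cell type medians depended on the scaling: under the series matrix only 5 and 17 of the 77 were lower in MSCs, and under quantile normalization 30 and 52.

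Genes that work with the chain were read from lists of the pathway. Of all genes, 51.4% were lower on the Sipa1-/- MSC array and 54.6% on the Sipa1-/- CD8 T cell array. Among 10 chain partners outside the symbol rule the MSC genotype median was -0.40, with 8 lower, and the extremes were far apart. Chchd10, a protein of the intermembrane space, had levels of 7.52, 4.47, 4.18 and 3.998 and a difference of -3.05. Ndufa4l2, a paralog of Ndufa4 that is known to be induced by low oxygen, had levels of 2.57, 5.14, -1.79 and 0.07 and was higher on both Sipa1-/- arrays, with differences of 2.56 for MSCs and 1.86 for CD8 T cells. Its direction was opposite to that of Ndufa4 itself, at -0.99 and -0.26. Among the partners Etfdh was also higher in MSCs, at 0.18, and Etfb in CD8 T cells, at 0.07.

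Assembly factors were lower less evenly than the subunits in MSCs. Of all genes, 51.4% were lower there, 11.9% past 2-fold lower and 15.9% past 2-fold higher. For complex I 12 of 15 were lower, with a median of -0.33, and none was past 2-fold. For complex II 3 of 4 were lower, among them Sdhaf2, which inserts the flavin into Sdha, at -1.10. For complex III 3 of 5 were lower, near the share of all genes, with a median of -0.08, and Ttc19 was higher at 1.14. For complex IV 14 of 18 were lower, with a median of -0.17, among them the heme A enzyme Cox10 at -1.12 and Taco1, a translational activator of the mitochondrial Cox1 message, at -1.01. The complex IV median moved to 0.04 under the series matrix scaling. All 3 factors of ATP synthase were lower, with a median of -0.59.

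The TCA cycle, which feeds the chain, had 12 of 13 enzymes lower in Sipa1-/- MSCs, with a median of -0.35 and fumarase Fh1 lowest at -0.88, and 13 of 13 lower in CD8 T cells, with a median of -0.15. Regulators of mitochondrial biogenesis were lower in 16 of 17 in MSCs, with a median of -0.78, and 3 were past 2-fold lower, against 11.9% of all genes. These were Gabpb1, the partner of GABPA, at -1.22, the transcription elongation factor Tefm at -1.18 and Tfam, which packages mitochondrial DNA, at -1.05. In CD8 T cells the regulators' median was -0.09, with 12 of 17 lower. Mitochondrial ribosomal proteins, which make the subunits encoded by mitochondrial DNA, were lower in 74 of 78 in both cell types, with medians of -0.61 and -0.18, and 5 were past 2-fold lower in MSCs, against 11.9% of all genes, Mrpl37 at -1.35, Mrpl49 at -1.20, Mrps9 at -1.09, Mrpl46 at -1.04 and Mrpl9 at -1.02.

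Glycolysis went the other way in MSCs, where 17 of 18 genes stood higher at a median of 0.49. Of all 13766 genes, 6693 were higher in MSCs and 6253 in CD8 T cells. Past 2-fold were the neuronal enolase Eno2 at 2.44, the glucose transporter Slc2a1 at 1.47 and hexokinase Hk2 at 1.26, against 15.9% of all genes past 2-fold higher. In CD8 T cells the median was 0.10, 14 of 18 genes were higher and Eno2 differed by 1.19. Cytosolic ribosomal proteins, which do not belong to mitochondria, were lower in 77 of 79 in MSCs and 73 of 79 in CD8 T cells. Of all genes, 51.4% and 54.6% were lower. The medians of these ribosomal proteins were -0.36 and -0.15, close to those of the respiratory chain subunits. Under quantile normalization the MSC median of these ribosomal proteins was -0.10 and that of the subunits -0.35, so that the closeness depends on the scaling. The one past 2-fold was Rpl39l, a testis paralog of Rpl39, at 1.42 in MSCs. Proliferation genes were past 2-fold lower in 27 of 27 in Sipa1-/- MSCs, against 11.9% of all genes. Their median was -1.98 there, with the spindle motor Kif11 lowest at -2.62, and -0.12 in CD8 T cells. The part of proliferation in the subunit differences was not tested.

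**Figure D4:**
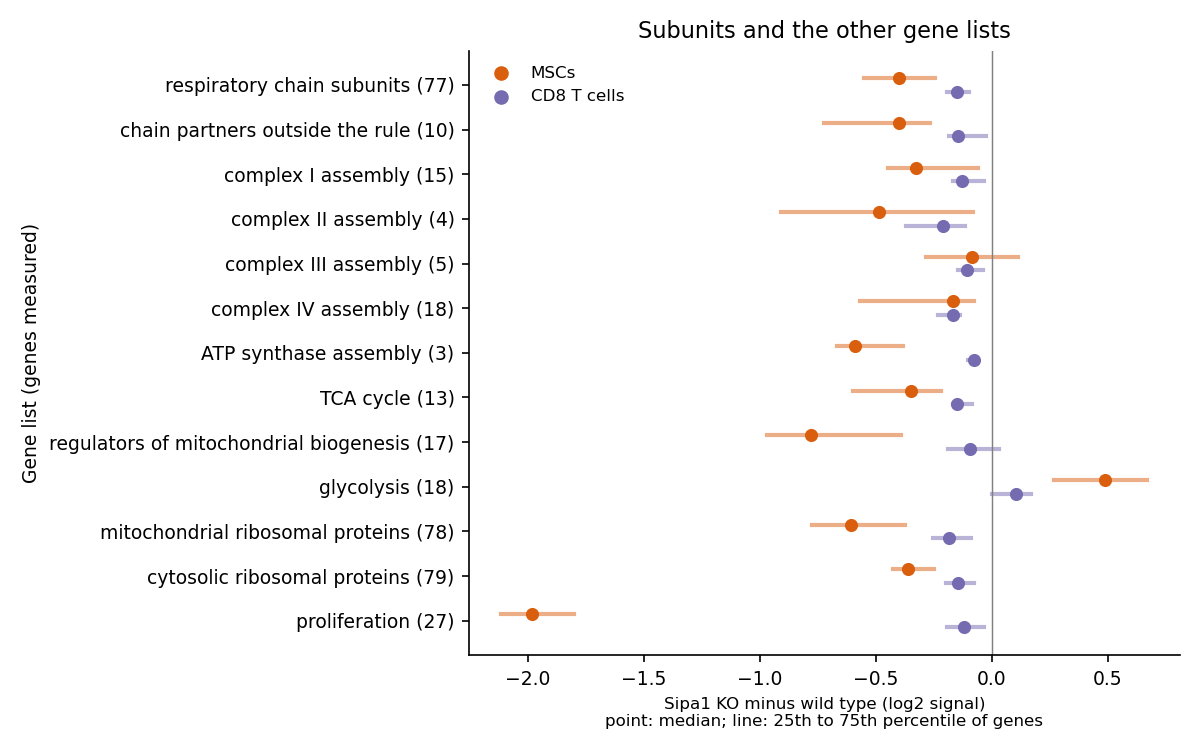
Genotype difference, as log2 signal of the Sipa1-/- array minus the Wt array, of the respiratory chain subunits and of 12 other gene lists, in MSCs (orange) and CD8 T cells (purple). Points are medians over genes, lines run from the 25th to the 75th percentile of genes and the number of measured genes is in parentheses. The median of the subunits is -0.40 in MSCs and -0.15 in CD8 T cells, next to -0.36 and -0.15 for cytosolic ribosomal proteins, and glycolysis lies above 0 in both. Under the series matrix scaling the medians of complex IV assembly in MSCs and of complex I assembly, complex III assembly, ATP synthase assembly, the biogenesis regulators and proliferation in CD8 T cells, and of complex III assembly in MSCs, lie above 0.

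Of the 5 members with a probe that did not pass on all arrays, 3 were the isoforms Cox7b2, Cox8b and Cox8c. The complex I subunits Ndufc2 and Ndufv3 were well above background on every array but carried flags for uneven spots or background. Ndufc2 failed on the Wt MSC array alone and had levels of 4.70, 4.26, 4.38 and 4.37. Ndufv3, a subunit of the NADH-binding part, failed on both Sipa1-/- arrays and had levels of 5.08, 5.51, 5.67 and 5.50, with the flagged Sipa1-/- MSC value above the Wt one. Cross-hybridization with the 14 pseudogenes, which had no matched probe of their own, was not tested.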

How the data were processed

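RNA of sorted cells was labelled with Cy3 and hybridized to Agilent mouse arrays (SurePrint G3 v2), 1 array per group on 1 slide. The deposited scanner files hold intensity values that the authors' Feature Extraction software (9.1 in the submitters' processing notes, 12.0.3.1 in the file headers) corrected for background. The deposited series matrix holds the same intensities times 1 constant per array, and the choice of the constants is not given in the sources used here.

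Of 59305 spots per array that were not controls, 60.3% to 65.3% were well above background. The 75th percentile of signal was 16.4 to 19.7 times the median background. Log2 signals were shifted by each array's 75th percentile. Spots had to pass, on all 4 arrays, the flags that the methods name (not saturated, no uneven spot or background, positive and significant, well above background). Averages were taken on the log2 scale, first over a probe's spots and then over a gene's probes. Accessions of 57.6% of spots matched a RefSeq symbol. Counts used 2-fold. With 1 array per group there is no test, and the number of arrays limits the precision. A gene passed only if it was above background in both cell types, so isoforms absent from one cell type are described separately.

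The genes named are those past 2-fold, the 2 highest and 2 lowest of each complex in each genotype comparison, the isoform families, members that did not pass, and pathway genes past 2-fold in MSCs, up to 6 per list. The promoters shown, and the restriction to windows at a gene's start, were chosen after the values were seen. The members, lists and tests were chosen with earlier results of these data known. Alternatives were other flag rules, scalings (median, quantile, series matrix), normexp with an offset of 50, the brightest probe, bright genes only, a wider symbol match and ubiquitous subunits only. The gene summary was tested on simulated data. The work was done with R 4.3.3 and limma 3.58.1 for normexp and with matplotlib 3.10.9, pandas 2.3.3 and numpy 2.4.6 under Python 3.11.15.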

Additional observations from a re-analysis of the deposited data

Results flagged for a closer look

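Ndufb8, a membrane subunit of complex I on 1 probe, had opposite genotype differences in the 2 cell types, -0.30 in MSCs and 0.32 in CD8 T cells, each larger than the spot noise limit of 0.117. The gap between them was -0.62. Its levels were 5.01 and 4.70 in Wt and Sipa1-/- MSCs and 4.61 and 4.93 in Wt and Sipa1-/- CD8 T cells, and it was the only complex I subunit above the spot noise limit in CD8 T cells. The difference was not tested.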

How the results depend on the processing

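The median MSC genotype difference of the members stayed below 0 under all 11 alternatives, and so did the CD8 T cell one. Under the series matrix scaling they moved to -0.19 and -0.018. The cell type medians moved from -0.03 to 0.42 in Wt and from -0.35 to 0.17 in Sipa1-/-. Both changed sign, with 5 and 17 members lower in MSCs. Quantile normalization moved the cell type medians to 0.10 and -0.18, and the CD8 T cell genotype median to -0.07, or -0.04 relative to the median gene, with 61 members below 0 and 52 below the median gene. Relative to the median gene, 73 MSC and 69 CD8 T cell differences were lower, counts that a scaling by a constant cannot change. Under quantile normalization 69 MSC differences were below 0 and 65 below the median gene. The members past 2-fold in MSCs were 2 under the series matrix and 2 among ubiquitous subunits. In CD8 T cells there was 1 without flags and 1 with the wider symbol match, Ndufa4l2. Between cell types there were 0 in Wt and 1 in Sipa1-/- among ubiquitous subunits, and 7 in Sipa1-/- without flags. Of the pathway lists, under the series matrix scaling complex IV and complex III assembly in MSCs moved above 0, to 0.04 and 0.12, and complex I, complex III and ATP synthase assembly, the biogenesis regulators and proliferation in CD8 T cells to 0.0036, 0.028, 0.058, 0.041 and 0.012. The series matrix differs by its constants and the narrower or wider sets by the genes counted, and the cause of the change under quantile normalization was not tested. No paired analysis was possible because each group had 1 array, and for the same reason no array could be left out.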
